A study of Homo sapiens with 6 samples.

Results

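RNA polymerases I, II and III and the general transcription factors that load them onto DNA were read in EJ/T24, an established human line of invasive bladder cancer, by expression arrays (HG-U133 Plus 2.0). The members were the genes whose current symbols name a polymerase subunit (POLR1, POLR2 and POLR3), a general factor (GTF2 and GTF3), a TBP associated factor (TAF), a TFIIS form (TCEA1 to TCEA3), an ELL family member, an SUPT factor, CDK7 or CDK9, with TAF1L left out. This rule gave 100 of the 19775 genes on the array that had a probe set with a single symbol, and it used no measured value. Of these, 90 encode proteins and 10 are antisense transcripts or pseudogenes whose symbols also fit the rule. The 90 include the TFII-I family, which shares the GTF2 name, and subunits of the coactivator SAGA. A probe set is a group of short oligonucleotides that reads a transcript, and each member was read by its brightest probe set. Another 18 probe sets carry symbols of several genes (TAF9 with AK6, most GTF2I, GTF2H2 and POLR2J probe sets) and were given to no gene. There were 3 arrays of EJ cells transfected with a FOXA1 construct and 3 control arrays of EJ cells transfected with empty vector, which the labels name as pUC19 and the methods as the empty form of pcDNA3, the vector that carried FOXA1. Cells of both groups were transfected with a Lipofectamine reagent in the same way. FOXA1 is a forkhead transcription factor, and no selection of transfected cells is described, so each array reads the dish as a whole. The methods give the amounts for each dish and say that the work was done in triplicate, but they do not tie each array to a dish of its own. The p-values cover the spread from array to array alone, and that spread may be technical.

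Every nuclear gene is copied by an RNA polymerase. RNA polymerase I makes the large ribosomal RNA, RNA polymerase II makes mRNA, and RNA polymerase III makes tRNA, 5S ribosomal RNA and other small RNAs. Each polymerase has subunits of its own and subunits that it shares with the others. RNA polymerase II is placed at promoters by TFIID, TFIIA, TFIIB, TFIIE, TFIIF and TFIIH, whereas SL1 serves polymerase I and TFIIIA and TFIIIC serve polymerase III. After the start, DSIF, the P-TEFb kinase, ELL proteins and TFIIS control pausing and elongation. These are housekeeping proteins present in dividing cells of most kinds.

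FOXA1 itself had signals of 38.9, 34.8 and 31.9 in the FOXA1 transfected arrays, against 21.8, 24.4 and 21.0 in the control arrays, at its brighter probe set 204667_at. The groups did not overlap (log2 difference 0.65, FOXA1 transfected minus control, SE 0.23, limma adjusted p = 0.31). The study's table of changed genes has the other sign for TCEA2, the member it holds, and the sources used here do not settle which direction is right, for TCEA2 or for other members. Directions here follow the labels. The second FOXA1 probe set was dim and had the other sign (log2 difference -0.54, SE 0.64). The median signal of all probe sets was 14.4 to 17.5 in FOXA1 transfected arrays and 12.3 to 16.1 in control arrays. For RNA quality, the 3′ to 5′ signal ratio of ACTB was 2.37 ± 0.23 in FOXA1 transfected arrays and 1.73 ± 0.19 in control arrays (SD, n = 3 each, exact two-sided permutation p = 0.1, the smallest that 3 arrays against 3 allow). The same ratio of GAPDH was 0.92 ± 0.02 in FOXA1 transfected arrays and 0.90 ± 0.01 in control arrays (exact two-sided permutation p = 0.3). The part of RNA quality in the differences given here was not tested. Of 11 epithelial markers measured, 8 had a difference above 0 and 3 below (median 0.13). The 3 below were KRT19, EPCAM and KRT5, each at a low signal. Low signals were also found among those above 0 (CDH1, UPK1A, UPK2 and UPK3A), and 3 of the 11 markers exceeded the median mean signal of 14.47. KRT7 alone did not overlap (log2 difference 0.37, SE 0.27). KRT18, the brightest, averaged 2478 in FOXA1 transfected arrays and 2261 in control arrays, which overlapped. Of 4 mesenchymal markers, 1 had a difference above 0 and 3 below (median -0.29). VIM averaged 4068 in FOXA1 transfected arrays and 3836 in control arrays. CDH2 averaged 361.6 in FOXA1 transfected arrays and 494.8 in control arrays without overlap (log2 difference -0.45, SE 0.09, adjusted p = 0.12), FN1 averaged 15.4 in FOXA1 transfected arrays and 24.6 in control arrays without overlap (-0.88, SE 0.46), and ZEB1 had -0.13 (SE 0.09). Their part in the results was not tested. KRT19, CDH1 and UPK3A lay at or under 3.5, the 20th percentile of all signals, in the means of both groups. Of 14 markers of leukocytes, endothelium, muscle and nerve, 13 were measured, and their summed signal was 135.3 to 137.8 in FOXA1 transfected arrays and 99.8 to 138.8 in control arrays, with CD14 and MYOD1 at or under 3.5 in the means of both groups.

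Promoter sequences were taken from RefSeq (build GRCh38.p14), from 250 bases before to 50 bases after the start of each gene, for the 3 members that passed a test once dim probe sets were left out and for POLR1C, which holds overlapping copies of the ETS core. They run 5′ to 3′ along the gene, and capitals mark matches to any of 5 motifs on either strand. The motifs were the ETS core CCGGAAG (a core of sites bound by ETS family factors), the GC box GGGCGG, the CCAAT box CCAAT, the TATA box TATAAA and the forkhead core TGTTTAC.
POLR2F, chr22:37953449-37953748 (+ strand): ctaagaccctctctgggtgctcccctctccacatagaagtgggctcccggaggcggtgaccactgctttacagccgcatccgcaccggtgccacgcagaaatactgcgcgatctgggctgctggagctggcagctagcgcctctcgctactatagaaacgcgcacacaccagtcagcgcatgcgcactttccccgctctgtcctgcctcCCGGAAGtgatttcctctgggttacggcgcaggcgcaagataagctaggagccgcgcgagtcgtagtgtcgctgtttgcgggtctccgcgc
POLR2A, chr17:7484116-7484415 (+ strand): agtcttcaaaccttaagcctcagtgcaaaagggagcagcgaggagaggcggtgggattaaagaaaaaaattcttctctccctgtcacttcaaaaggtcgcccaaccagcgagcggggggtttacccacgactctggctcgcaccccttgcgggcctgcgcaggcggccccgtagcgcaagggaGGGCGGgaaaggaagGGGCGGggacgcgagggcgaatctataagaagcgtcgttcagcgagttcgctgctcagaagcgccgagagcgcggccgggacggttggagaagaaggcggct
TCEA2, chr20:64056722-64057021 (+ strand): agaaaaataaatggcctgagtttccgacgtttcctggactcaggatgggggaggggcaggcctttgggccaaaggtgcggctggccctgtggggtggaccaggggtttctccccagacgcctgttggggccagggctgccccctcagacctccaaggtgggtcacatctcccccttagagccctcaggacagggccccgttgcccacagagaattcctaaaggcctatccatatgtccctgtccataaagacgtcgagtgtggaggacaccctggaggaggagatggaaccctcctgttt
POLR1C, chr6:43516839-43517138 (+ strand): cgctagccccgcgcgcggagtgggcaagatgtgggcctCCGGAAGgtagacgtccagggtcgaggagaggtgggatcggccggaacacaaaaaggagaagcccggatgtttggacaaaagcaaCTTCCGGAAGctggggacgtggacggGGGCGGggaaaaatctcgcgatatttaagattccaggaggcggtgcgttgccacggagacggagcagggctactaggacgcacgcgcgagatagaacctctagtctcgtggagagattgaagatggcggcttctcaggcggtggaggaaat
The POLR2F promoter held a single ETS core. The POLR2A promoter held 2 GC boxes, and no match of the 5 motifs was found in the 300 bases of TCEA2. The POLR1C promoter held 3 ETS cores, of which 2 run on opposite strands and overlap in the letters CTTCCGGAAG, and a GC box.

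Signals were compared between groups by limma on log2 MAS5 signal, with Benjamini-Hochberg adjustment over all 54613 probe sets and a threshold of 0.05. No member passed, higher or lower, whereas 0.0385% of all probe sets passed as higher and 0.0201% as lower (21 and 11 probe sets). In bulk samples fewer cells of a type and less RNA per cell cannot be told apart. At an unadjusted p under 0.05 there were 12 of 100 members on the higher side and 7 on the lower side, against 9.18% and 5.53% of all genes. All of these were among the 92 members above the median mean signal, and of all genes above it 11.7% were higher and 8.3% lower. Against these brighter genes the members were about as frequent. SAM, the test named in the methods, was run here on the log2 MAS5 signals of all 54613 probe sets and called 0 members. The study describes it on RMA values and lists TCEA2 among its significant genes. Limma without the intensity trend called 0 members. In that fit 8 of the 100 members had an unadjusted p under 0.05, against 4352 of the 54613 probe sets. With the probe sets at or under the median mean signal of 14.47 left out, 92 members remained. In that fit POLR2A passed as higher (adjusted p = 0.044), and POLR2F (adjusted p = 0.036) and TCEA2 (adjusted p = 0.047) passed as lower. These are 1.09% and 2.17% of the 92 members, against 0.355% of 27298 probe sets called higher and 0.282% called lower in the same fit. The units differ, since members are genes at their brightest probe set and the 27298 are probe sets of any rank. With so few calls the shares cannot be ranked.

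In 15 of the 100 members (15.0%) the FOXA1 transfected arrays lay wholly above the control arrays, and in 9 (9.0%) wholly below. Over all genes these shares were 12.5% above and 7.26% below. Among genes over the median signal, 15 of 92 members lay above (16.3%, against 14.7% of all such genes) and 8 lay below (8.7%, against 10.4%). The members without overlap were therefore about as frequent as such genes on the whole array. The log2 difference was above 0 in 51 members and below 0 in 49, with a median of 0.033 (all genes, 0.075, with 59.2% above 0). In the 92 brighter members the median size of the difference, whatever its sign, was 0.12, against 0.16 for the brighter genes as a whole. With each array centred on its median signal, which moves the median of all probe sets to -0.10 against 0.08 as deposited, the median of the members was -0.15, with 23 above 0 and 77 below, so the signs of small differences depend on the scaling. With quantile normalization the median was 0.00099, with 50 members on each side. Median centring turned the sign of 28 members, among them 4 without overlap (POLR1F, POLR3F, POLR2L and GTF3A), and quantile normalization that of 3. Under median centring 3 members lay wholly above and 12 wholly below, and the shares over all genes were not computed for this scaling.

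**Figure D1:**
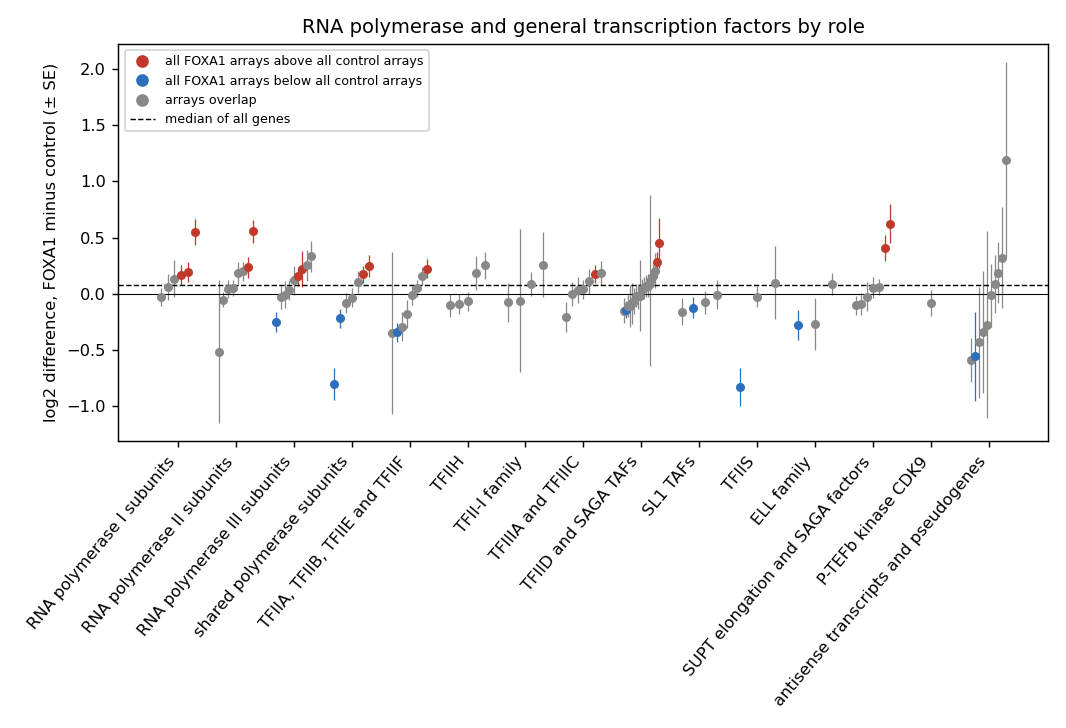
Log2 difference in signal (FOXA1 transfected minus control, vertical axis) of the 100 members, grouped by role along the horizontal axis, with bars of ± SE from limma. Red and blue points are the 15 members above and the 9 below without overlap of the arrays, grey points overlap, and the dashed line is the median of all genes, at 0.075.

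The polymerases were represented by 30 subunits. All 6 subunits particular to polymerase I were bright, 5 of them had a difference above 0 (median 0.15), and 3 did not overlap. For this count and those of the other roles, 25.1% of all genes above the median signal did not overlap in either direction. Under median centring 2 of the 6 were above 0 (median -0.03), as were 4 of 8 for polymerase II and 3 of 9 for polymerase III. POLR1G, a subunit of polymerase I that takes part in its contact with initiation factors, had signals of 267.6, 341.5 and 274.9 in FOXA1 transfected arrays, against 221.1, 189.4 and 191.7 in control arrays. Each FOXA1 transfected array was above each control array, with FOXA1 replicate 2 the highest (log2 difference 0.55, SE 0.12, adjusted p = 0.12). The spans of POLR1G and of the repair gene ERCC1 overlap in RefSeq. POLR1B, the second largest subunit of polymerase I, had 391.8, 413.6 and 393.3 in FOXA1 transfected arrays, against 366.0, 359.3 and 323.8 in control arrays (log2 difference 0.19, adjusted p = 0.42).

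Of the 8 subunits particular to RNA polymerase II, 6 had a difference above 0 (median 0.12) and 2 did not overlap. POLR2A encodes the largest, catalytic subunit, whose C-terminal repeats are phosphorylated as transcription proceeds. Its signals were 250.7, 258.4 and 214.8 in FOXA1 transfected arrays, against 163.5, 159.8 and 166.8 in control arrays (241.3 ± 23.3 and 163.4 ± 3.5, SD, n = 3 each). The control arrays lay within a narrow range and the lowest FOXA1 transfected array was well above them (log2 difference 0.56, SE 0.10, adjusted p = 0.093). Over all settings tried its log2 difference was 0.38 to 0.64, with an adjusted p of 0.044 to 0.53. The remaining POLR2A probe sets were dim, with differences of -0.55 (SE 0.63) and 0.18 (SE 0.94). POLR2D, which with another subunit forms the stalk of polymerase II, had 248.0, 271.2 and 262.7 in FOXA1 transfected arrays and 219.3, 205.6 and 240.7 in control arrays (log2 difference 0.23, adjusted p = 0.39). Its second probe set had a difference of 0.38 (SE 0.17) with arrays that overlapped. POLR2B, the second largest subunit, had a difference of -0.05 (SE 0.07).

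The 9 subunits particular to RNA polymerase III had a median difference of 0.12, with 6 above 0, 2 without overlap above and 1 without overlap below. The exception below was POLR3GL, a paralog of POLR3G that takes its place in the enzyme of most differentiated cells. Its signals were 625.9, 574.0 and 585.0 in FOXA1 transfected arrays, against 651.0, 781.5 and 698.3 in control arrays (log2 difference -0.25, SE 0.09, adjusted p = 0.30), and the closest arrays of the groups were near each other. POLR3G itself had a difference of -0.03 (SE 0.10). POLR3B, the second largest subunit, had 159.1, 188.4 and 198.3 in FOXA1 transfected arrays and 138.9, 123.5 and 172.6 in control arrays, which overlapped (log2 difference 0.34, SE 0.14, adjusted p = 0.40).

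The 7 shared subunits split, with 2 above and 2 below without overlap and a median of -0.04 (-0.22 under median centring). POLR2F is a small subunit common to all 3 polymerases. It had signals of 317.7, 378.3 and 378.3 in FOXA1 transfected arrays, against 634.8, 490.4 and 773.5 in control arrays (358.1 ± 35.0 and 632.9 ± 142, SD, n = 3 each). The control arrays were spread widely, yet the lowest was above every FOXA1 transfected array (log2 difference -0.80, SE 0.15, adjusted p = 0.093). Over all settings the log2 difference was -0.98 to -0.65, with an adjusted p of 0.036 to 0.55. The second POLR2F probe set was dim, with a difference of -0.03 (SE 0.47), and the RefSeq span of POLR2F overlaps those of SOX10 and C22orf23. POLR1D, which pairs with POLR1C in polymerases I and III, had 1224.7, 1483.6 and 1357.4 in FOXA1 transfected arrays and 1540.8, 1646.9 and 1528.6 in control arrays (log2 difference -0.22, SE 0.09, adjusted p = 0.36). Its partner POLR1C had 402.2, 437.2 and 481.4 in FOXA1 transfected arrays and 375.5, 343.2 and 392.6 in control arrays (log2 difference 0.25, SE 0.09, adjusted p = 0.35). The signs of these partners thus differed at the brightest probe sets, but they also differed between probe sets of each gene, since the second POLR1C probe set had -0.25 (SE 0.11) and the POLR1D probe sets ran between -0.22 and 0.10.

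**Figure D2:**
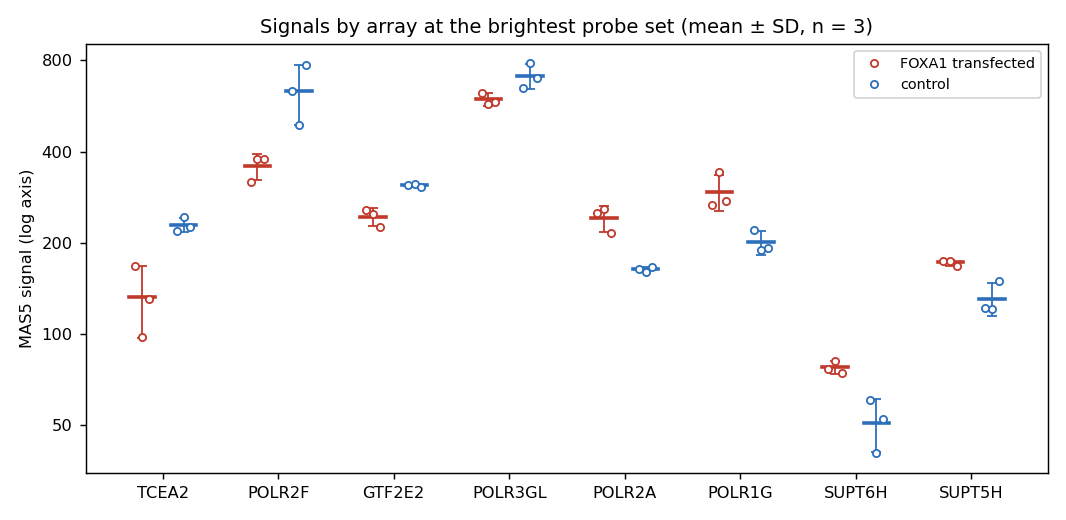
MAS5 signal (log axis) at the brightest probe set of 8 members in each FOXA1 transfected array (red, left of each pair) and each control array (blue), with the mean (bar) and SD (whiskers) of 3 arrays. The groups do not overlap in any of these members, which were chosen for that. TCEA2, POLR2F, GTF2E2 and POLR3GL are lower in FOXA1 transfected arrays and the other 4 higher.

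The TFIIS forms rescue stalled polymerase II by making it cut the end of its own transcript. TCEA2, the form best known from testis, is among the genes that the study picked from these arrays, so its value is not independent evidence. The study lists it at the same probe set, 203919_at, but as raised after FOXA1 transfection, the opposite of the direction found here. Its signals at 203919_at were 168.1, 97.9 and 130.7 in FOXA1 transfected arrays, against 219.6, 243.9 and 225.4 in control arrays (132.2 ± 35.1 and 229.6 ± 12.7, SD, n = 3 each). The groups did not overlap, and FOXA1 replicate 2 was the lowest (log2 difference -0.83, SE 0.17, adjusted p = 0.11). With 1 array left out at a time the difference was -1.02 to -0.63. The 2 other TCEA2 probe sets were dim. At 238173_at the signals were 1.4, 2.5 and 1.7 in FOXA1 transfected arrays and 7.5, 1.5 and 6.9 in control arrays, and at 241428_x_at they were 3.7, 5.8 and 10.3 in FOXA1 transfected arrays and 22.5, 6.1 and 3.7 in control arrays. Both had a difference below 0 with wide errors (-1.24, SE 0.84, and -0.40, SE 0.75), and their arrays overlapped. TCEA1, the form of most tissues, had a difference of -0.03 (SE 0.10), and TCEA3 of 0.10 (SE 0.33) at means of 17.2 in FOXA1 transfected arrays and 16.0 in control arrays, with a sign that turned under quantile normalization and median centring.

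The initiation factors of polymerase II showed few separations. Among the 8 genes of TFIIA, TFIIB, TFIIE and TFIIF, 3 had a difference above 0 and 5 below (median -0.10), and under median centring 1 was above 0 and 7 below. GTF2E2, the smaller subunit of TFIIE, had 257.1, 249.4 and 226.0 in FOXA1 transfected arrays, against 309.8, 311.9 and 306.6 in control arrays, which lay close together above them (log2 difference -0.34, SE 0.09, adjusted p = 0.19). GTF2E1, the larger TFIIE subunit, had a difference of -0.01 (SE 0.09). GTF2A2, the small subunit of TFIIA, had 1309.9, 1425.8 and 1416.6 in FOXA1 transfected arrays and 1189.4, 1093.5 and 1274.9 in control arrays (log2 difference 0.22, adjusted p = 0.32), while its other probe sets had 0.39 (SE 0.22) and -0.67 (SE 0.41).

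TFIIH opens the promoter, and its kinase CDK7 phosphorylates the tail of POLR2A. None of its 5 members separated, and their differences lay between -0.10 and 0.25. CDK7 had signals of 926.9, 863.9 and 743.5 in FOXA1 transfected arrays and 912.0, 893.8 and 881.0 in control arrays (log2 difference -0.09, SE 0.09). GTF2H1 had a difference of 0.25 (SE 0.12) and GTF2H3 of 0.18 (SE 0.15), both with arrays that overlapped. The 4 members of the TFII-I family, signal-responsive factors that share the GTF2 name, overlapped too (GTF2I 0.26, SE 0.29, and GTF2IRD1 0.09, SE 0.11). GTF2I was read at low means of 22.5 in FOXA1 transfected arrays and 18.8 in control arrays. The brighter probe sets that it shares with pseudogenes had the other sign (-0.07 and -0.19, at FOXA1 transfected means of 1473 and 596.4). GTF2IRD1 was below 0 under median centring.

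The TAFs of TFIID and of the coactivator SAGA were 18 genes, 9 above 0 and 9 below (median 0.02), with 2 above and 1 below without overlap. Under median centring 3 were above 0 and 15 below (median -0.17). TAF13, a histone fold subunit of TFIID, had 2042.3, 2131.9 and 2457.8 in FOXA1 transfected arrays, against 1953.7, 1669.4 and 1836.6 in control arrays (log2 difference 0.28, SE 0.09, adjusted p = 0.28). Its second probe set also did not overlap, with 38.1, 30.5 and 25.9 in FOXA1 transfected arrays and 21.7, 18.5 and 21.3 in control arrays (log2 difference 0.61, SE 0.26). TAF6, another histone fold subunit, had 182.9, 161.4 and 167.2 in FOXA1 transfected arrays and 156.7, 78.9 and 155.7 in control arrays (log2 difference 0.45, SE 0.22, adjusted p = 0.48). Control replicate 2 was far below the others, and without it the TAF6 difference was 0.12. TAF2, which touches DNA at the start site, had 808.9, 832.8 and 876.4 in FOXA1 transfected arrays and 948.6, 921.3 and 903.8 in control arrays (log2 difference -0.14, SE 0.07, adjusted p = 0.51), and a difference of 0.01 (SE 0.13) at its other probe set. All 4 TAFs of SL1 had differences below 0, between -0.16 for TAF1A and -0.01 for TAF1C, each within 2 SE of 0. TAF1D alone did not overlap, with 201.3, 200.1 and 211.6 in FOXA1 transfected arrays and 231.0, 217.5 and 218.5 in control arrays (log2 difference -0.12, SE 0.09). The brighter probe sets that carry TAF1D with small RNA genes had -0.01 and -0.05 (FOXA1 transfected means of 1543 and 1946).

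TFIIIA and TFIIIC, which recruit polymerase III, had 5 members above 0 and 2 below (median 0.04), and 1 above 0 under median centring. GTF3A encodes TFIIIA, the factor of the 5S ribosomal RNA genes. At its brightest probe set it had 2459.6, 2872.5 and 2426.1 in FOXA1 transfected arrays, against 2254.9, 2271.8 and 2321.0 in control arrays (log2 difference 0.18, SE 0.08, adjusted p = 0.45, and -0.01 under median centring). At 238880_at the order was the other way, with 99.2, 70.1 and 86.3 in FOXA1 transfected arrays and 141.9, 110.2 and 112.8 in control arrays (log2 difference -0.52, SE 0.16, adjusted p = 0.25), and the third probe set had 0.05 (SE 0.08). GTF3C4, a TFIIIC subunit, had a difference of 0.19 (SE 0.11).

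Among the elongation factors, SUPT5H and SUPT6H were above and the ELL family mostly below. SUPT5H is the large subunit of DSIF, which holds and then frees polymerase II near the promoter. It had 174.9, 174.2 and 167.7 in FOXA1 transfected arrays, against 121.6, 121.0 and 149.6 in control arrays (log2 difference 0.40, SE 0.11, adjusted p = 0.22). SUPT4H1, the small subunit of DSIF, had a difference of -0.10 (SE 0.09). SUPT6H, a histone chaperone that travels with polymerase II, had 77.0, 81.7 and 74.3 in FOXA1 transfected arrays, against 60.4, 40.4 and 52.3 in control arrays (log2 difference 0.62, SE 0.17, adjusted p = 0.21), at a probe set whose _x_at name marks probes that can match other transcripts. Another SUPT6H probe set of that kind had 0.45 (SE 0.21) without overlap, and the brighter of those remaining had 0.19 (SE 0.26) with overlap. The other 5 SUPT factors, among them the FACT subunit SUPT16H, overlapped, with differences between -0.10 and 0.06. ELL3 had 74.0, 67.7 and 67.4 in FOXA1 transfected arrays and 80.2, 91.9 and 82.0 in control arrays (log2 difference -0.28, SE 0.13, adjusted p = 0.46), ELL had -0.27 (SE 0.23) and ELL2 0.09 (SE 0.10, and -0.095 under median centring). The spans of ELL3 and PDIA3 overlap in RefSeq. CDK9, the P-TEFb kinase that releases paused polymerase II, had 158.8, 157.9 and 133.9 in FOXA1 transfected arrays and 152.8, 150.5 and 172.4 in control arrays (log2 difference -0.08, SE 0.11).

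The 10 antisense transcripts and pseudogenes had 6 members above the median signal and differences from -0.59 to 1.19. GTF2A1-AS1, whose span overlaps that of GTF2A1, did not overlap between groups, with 10.6, 9.3 and 10.4 in FOXA1 transfected arrays and 12.4, 14.6 and 18.0 in control arrays (log2 difference -0.56, SE 0.39). GTF2H2B, a copy of GTF2H2 whose transcript is near identical to those of its family, had 92.8, 57.2 and 69.8 in FOXA1 transfected arrays and 132.7, 106.8 and 89.7 in control arrays (log2 difference -0.59, SE 0.20, adjusted p = 0.28). The brighter probe sets that it shares with its family had 0.30, 0.095 and -0.14 (FOXA1 transfected means of 566.6, 605.5 and 425.8).

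Whether different probe sets of a gene gave the same sign was counted for members with more than 1 probe set of mean signal above 14, which is 4 times the 20th percentile of all signals. Their probe sets had a common sign in 27 of 56 members (48.2%), against 49.2% of 6018 genes in all. In members with exactly 2 such probe sets it was 17 of 35 (48.6%), against 62.3% of 3253 genes. POLR1C, POLR1D, GTF2A2, GTF2F1, GTF2H1 and GTF3A were among those with both signs. TAF13, POLR2D, ELL3 and the brighter SUPT6H probe sets each had a single sign. POLR2A, POLR2F and TCEA2 each had a single probe set above that level, so their values rest on it alone, and POLR1G and SUPT5H have no other probe set of their own.

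**Figure D3:**
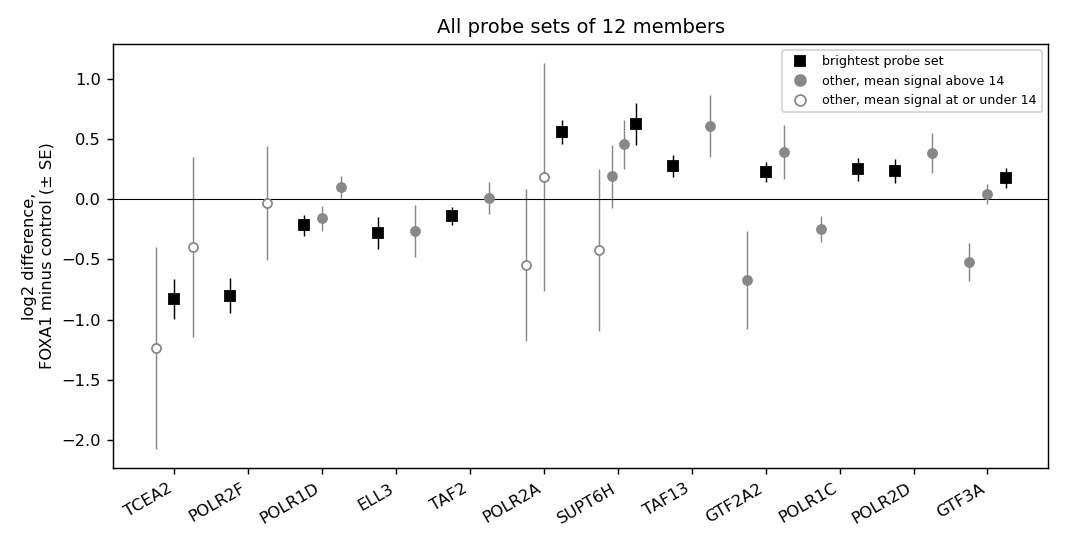
Log2 difference (FOXA1 transfected minus control, ± SE from limma, vertical axis) at every probe set with a single symbol of 12 members. Squares are the brightest probe set, filled circles others with a mean signal above 14 and open circles those at or under 14, and in POLR1C and GTF3A the filled symbols lie on both sides of 0.

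Of 51 genes that work with these proteins but lie outside the rule (TBP, TFIIH and P-TEFb partners, NELF, the PAF complex, the super elongation complex and others), 48 were measured and 0 passed by limma over all probe sets, with a median difference of 0.09. At an unadjusted p under 0.05 there were 8 higher and 3 lower, where genes above the median signal had 11.7% higher and 8.3% lower. The groups did not overlap above in 11 of the 48 and below in 3, where the shares of such genes were 14.7% and 10.4%. Each partner gene was read at its brightest probe set alone. AFF4 is among the genes that the study picked from these arrays as lowered, at another probe set, so it is not independent. At its brightest probe set AFF4 had a difference of -0.01 (SE 0.09). AFF1, a scaffold of the super elongation complex, had 310.7, 290.7 and 313.4 in FOXA1 transfected arrays, against 524.8, 473.4 and 383.0 in control arrays (log2 difference -0.58, SE 0.11, adjusted p = 0.10, and 0.046 without dim probe sets). ERCC2, a TFIIH helicase, had 132.9, 125.7 and 125.4 in FOXA1 transfected arrays and 87.9, 83.5 and 92.7 in control arrays (log2 difference 0.54, SE 0.11, adjusted p = 0.12). ERCC3, another TFIIH helicase, went the other way, also without overlap (log2 difference -0.30, SE 0.12, limma adjusted p = 0.36). SSRP1, the partner of SUPT16H in FACT, had a difference of 0.33 (SE 0.08), and ELOA, an elongin subunit, of 0.28 (SE 0.08), both without overlap.

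RefSeq promoters were found for 77 members, of which 73 are protein coding. The ETS core CCGGAAG or its reverse complement stood in 31 of the 73 (42.5%), against 14.2% of 15843 protein-coding promoters of the same length. The GC box stood in 60.3% of member promoters and 58.5% of all, the CCAAT box in 30.1% and 36.4%, and the TATA box in 4.11% and 9.63%. The forkhead core TGTTTAC stood in 3 (GTF3C2, TAF11 and POLR2C; 4.11%), against 2.61% of all promoters. The letters of these motifs do not contain each other, and a match describes the sequence and is no measured site. The ETS core was found in promoters of 6 members above (POLR1B, POLR1C, POLR2D, TAF13, GTF2A2 and GTF3A) and 2 below (POLR2F and TAF1D) without overlap. The 31 members with it had a median difference of -0.00088 (15 above 0, 16 below, 8 without overlap), and the 42 without it 0.05 (24 above 0, 18 below, 12 without overlap). GTF3C2, TAF11 and POLR2C had differences of 0.04, 0.07 and 0.19, and their arrays overlapped. The first 2 were below 0 under median centring.

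**Figure D4:**
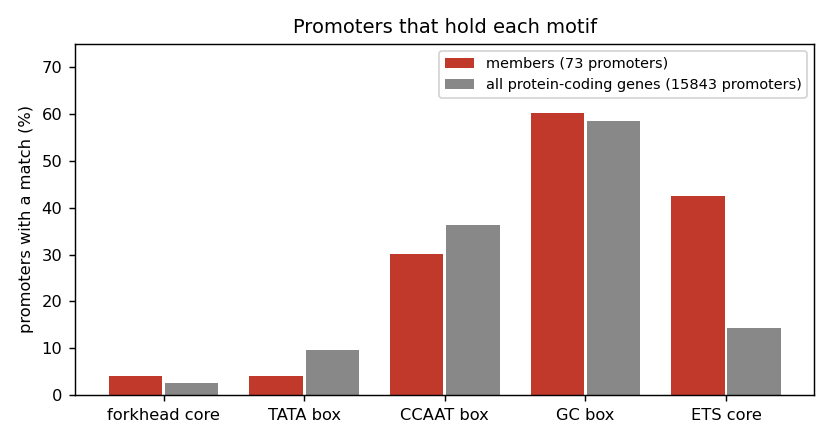
Percent of promoters (vertical axis) that hold each of 5 motifs on either strand, for 73 protein-coding members (red, left) and 15843 protein-coding genes (grey). The ETS core is in 42.5% of member promoters and 14.2% of all.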

How the data were processed

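RNA of 3 FOXA1 transfected and 3 control samples was hybridised to 1-colour arrays. The authors deposited a linear signal intensity per probe set and array, which the submitters' processing notes credit to MAS5 and which had been scaled to a common trimmed mean. The methods also name RMA, which was not applied to these values. No column of fold changes or p-values was used.

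Array controls (62 of 54675 probe sets) were left out. Signals listed at 0 (25) were set to 0.1, and log2 signals of the 54613 others were compared (FOXA1 transfected minus control) with limma 3.58.1 in R 4.3.3, lmFit and eBayes with an intensity trend, two-sided, adjusted by Benjamini-Hochberg (threshold 0.05). The test was tried on simulated data first. Single values had an exact permutation test. Symbols came from the platform annotation (41091 probe sets with 1 symbol, 1801 with several, 11721 with none), and all 100 members matched a RefSeq gene by Entrez number. No source used here gives a genome build for the probe sets, so gene positions are not printed. The number of arrays limits the precision. The members and lists were chosen with earlier results of these data known.

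The genes named were TCEA2, the 8 members of smallest p without overlap in each direction, the 2 of smallest p in each role, POLR2A, CDK7, CDK9 and SUPT5H, the 4 partner genes of smallest p, and further bright probe sets of these. POLR1F, POLR2B, POLR2C, POLR2L, POLR3F, POLR3G, TAF1C, TAF11, GTF2E1, GTF2F1, GTF3C2, SUPT4H1, SUPT16H, TCEA1, ELL2 and ERCC3 are named beside them, as partners of a named gene or as examples chosen after their values were seen. AFF4 is named because the study lists it. Alternatives were SAM (20 splits), limma without the trend, quantile normalization, median centring, a floor at the 20th percentile (3.5), dim or _x_at probe sets left out, a block for the replicate number, and leaving out each array in turn.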

Additional observations from a re-analysis of the deposited data

How the results depend on the processing

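The count of called members was 0 under SAM, limma without the trend, quantile normalization, median centring, the floor, without _x_at probe sets and without any 1 array. It was 1 higher and 2 lower without dim probe sets, where fewer probe sets were tested, TCEA2 at 203919_at passed (-0.83) and 1 partner gene was called. With the replicate number as a block it was 1 lower (POLR2F, adjusted p = 0.048), and 85 probe sets passed in all, against 32. Arrays of the same number correlated at 0.044, 0.16 and 0.11 in their deviations from the group means. Arrays of unlike number correlated at -0.13 to 0.029, below each of these. The main fit took no pairs, and whether arrays of the same number share a batch was not tested. Median centring gave a median of -0.15, with 3 members above and 12 below without overlap (shares of all genes not computed). It turned GTF2IRD1 (-0.094), GTF3A (-0.0063) and TCEA3 (-0.084, and -0.072 with quantile normalization), of which none passed under any setting. Leaving out 1 array gave 16 to 30 members above and 11 to 16 below without overlap, since fewer arrays overlap less. The highest counts were 30 above without control replicate 3 and 16 below without FOXA1 replicate 2. The shares over all genes were not computed for these settings, so the counts are no result about the members. The median difference of the members stayed between 0.01 and 0.05 with 1 array left out. With 1 array left out, TCEA2 at 241428_x_at ran from -0.95 to 0.35 (above 0 without control replicate 1), CDK9 from -0.12 to 0.00072 (without FOXA1 replicate 3) and GTF2H3 from -0.021 (without control replicate 3) to 0.29. The cause of these turns was not tested. Signals near 3.5 cannot be ordered, which limits the dim TCEA2, POLR2A and POLR2F probe sets. The other members and partner genes that the rule for named genes gives kept their sign in every setting that gave a value, and single values of other members were recomputed for the scalings only.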

Other observations

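Some probe sets that were not the brightest of their gene had larger differences than it, and are named after their values were seen. At TAF1, the largest subunit of TFIID, 216955_at had signals of 13.4, 15.3 and 23 in FOXA1 transfected arrays, against 2.7, 2.1 and 2.4 in control arrays, which all lie under the 20th percentile of signals (limma adjusted p = 0.11). The brightest TAF1 probe set had a log2 difference of -0.11 (SE 0.10), and the third had 0.04 (SE 0.35). At POLR2L, a small subunit shared by the polymerases, 202586_at had 78.6, 70.4 and 91.9 in FOXA1 transfected arrays, against 50.6, 36.7 and 62.4 in control arrays (log2 difference 0.71, SE 0.20, adjusted p = 0.23). The brightest POLR2L probe set had 3496.7, 3688.6 and 3522.3 in FOXA1 transfected arrays and 3062.4, 3039.2 and 3400.5 in control arrays (log2 difference 0.17, SE 0.08, and -0.0084 under median centring), so both lay above without overlap in the signals as deposited.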
